A study of Homo sapiens with 4 samples.

Results

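The genes of the NRF2 pathway were described across 4 RNA sequencing libraries of PANC-1, as the labels name the cells, an established line from a human pancreatic ductal adenocarcinoma. They are 10 genes, NFE2L2, KEAP1, TXNRD1, TXN, SRXN1, GCLC, GCLM, NQO1, HMOX1 and AKR1C3, taken by gene symbol from the 59885 genes of the authors' deposited DESeq2 table. The set was chosen by gene symbol with the fold changes and adjusted p-values of this same contrast known, so its values in that contrast are a description and support nothing further. All 10 passed the table's filter on low values and carry an adjusted p. The 2 groups are cells with a knockout of CFL1, the gene of the actin-severing protein cofilin-1, in 2 libraries, and control cells without it, also in 2 libraries. Both groups share the line's name and the total RNA protocol, and the labels give no treatment or time. How CFL1 was removed, whether a group is 1 clone and whether the libraries came from separate cultures are not stated in the labels, so every p-value rests on the spread among these libraries alone, and that spread may be technical.

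NRF2, the product of NFE2L2, is a transcription factor that answers to oxidants and electrophiles. KEAP1 holds it to the CUL3 ubiquitin ligase, which marks it for degradation. When cysteines of KEAP1 are modified, NRF2 escapes, pairs with a small MAF protein and binds antioxidant response elements near genes for thioredoxin, glutathione and detoxifying enzymes. NRF2 activity is therefore set largely by the protein's stability, and in pancreatic cancer cells it is known for keeping redox balance. Transcript levels measure neither the protein nor its location.

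The core of the antioxidant response element, TGACNNNGC, was searched on both strands in RefSeq promoter windows of build GRCh38.p14, which run from 250 bases before to 50 bases after each start. Windows were matched by symbol for 9 of the 10 genes, all but HMOX1, in 13 windows. Sequence outside these windows was not searched. The motif was present in 4 of these windows, which belong to 3 genes, GCLM, TXNRD1 and KEAP1. Of all 35116 windows, 13.3% hold it, and of all 27305 genes with a window, 16.1% do. Against control A, the mean log2 difference of the knockouts was lowest of the whole set at TXNRD1 and GCLM (-0.70 and -0.63) and highest at KEAP1 (0.27). Against control B the order differed, with -0.74 at TXNRD1, -1.12 at GCLM and -2.15 at KEAP1, and HMOX1 was lowest at -3.69. A link between the motif and these differences was not tested. The stretches that carry the motif are shown without regard to level. Each is read 5′ to 3′ on the gene's strand, with the motif in capitals; GCNNNGTCA is the same motif on the opposite strand.
GCLM, chr1:93909441-93909479, minus strand: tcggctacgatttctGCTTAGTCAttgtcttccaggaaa
TXNRD1, chr12:104286915-104286953, plus strand: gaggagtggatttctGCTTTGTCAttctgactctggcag
TXNRD1, chr12:104215665-104215703, plus strand: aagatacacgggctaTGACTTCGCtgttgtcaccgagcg
KEAP1, chr19:10502779-10502817, minus strand: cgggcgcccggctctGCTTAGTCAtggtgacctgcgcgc
KEAP1, chr19:10502802-10502840, minus strand: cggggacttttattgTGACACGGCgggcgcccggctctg
The last base of the motif lies 26 bases before the start for GCLM, 94 and 91 bases before 2 separate starts for TXNRD1, and 23 and 46 bases before 1 of the 2 starts for KEAP1. A further match in TXNRD1 reaches onto the start site itself. A match describes the letters only and is not a measured binding site.

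Levels are normalized counts, that is, reads per gene divided by the library's size factor, recovered for each library from the deposited means. Reads recovered per library came to 17218126 and 14518593 in knockouts A and B, and to 16827108 and 17155455 in controls A and B (the letters serve as names and cannot be tied to the labels' replicate numbers). CFL1 had 2285 and 2487 normalized counts in the knockouts, against 6276 and 13761 in the controls, which is -2.07 as a log2 fold change (adjusted p of 0.00168 by the authors' DESeq2 test). Control B was unlike the other 3 libraries. Base mean is the mean normalized count over all 4 libraries, and of the 17291 genes where it reached 10, 148 differed by more than 4-fold between knockout A and control A and 3617 between control B and control A. The labelled cell type was checked against its markers. KRT19, a keratin of ductal cells, had 0 reads in each knockout and 2 in control A, against 2481 normalized counts in control B. CDKN2A, which PANC-1 is known to lack through a homozygous deletion, had 1553 and 1303 normalized counts in the knockouts and 906 in control A, against 0 in control B. At CDKN2A the knockouts and control A thus go against the label of the line. CDKN2B and MTAP, checked beside it, had the same pattern. CDKN2B had 296 and 360 in the knockouts and 437 in control A, against 0 in control B. MTAP had 1249 and 1549 in the knockouts and 1267 in control A, against 27.9 in control B. Of the ductal marker list, SOX9, CDH1 and EPCAM were also highest in control B, at 3513, 164 and 42.5. Their highest values elsewhere were 183, 12.7 and 16.2. KRT7 and MUC1 of that list went the other way. KRT7 had 4000 and 3683 in the knockouts and 3551 in control A, against 108 in control B. MUC1 had 274 in each knockout and 213 in control A, against 104 in control B. KRT8 and KRT18 were read in all 4 libraries and carry most of the list's sum. The 8 ductal epithelial markers summed to 20528 to 21621 normalized counts in the knockouts, against 28918 in control A and 58619 in control B. Leukocyte and endothelial markers summed to 46.4 to 52.2 in the knockouts, against 70.9 in control A and 1227 in control B, of which CD68 made 1217; PTPRC, which marks leukocytes, reached at most 0.9 in any library. The part of this difference between the controls in the results that follow was not tested, and values against each control are therefore given side by side.

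NFE2L2 (ENSG00000116044.15_3_NFE2L2) had 2242 and 2187 normalized counts in the knockouts, against 2816 and 2715 in the controls. Both knockouts lay below both controls, and the groups were apart although the margin was small. The knockouts averaged 2215 ± 38.9 and the controls 2766 ± 71.8 (SD, n = 2 each), so that the knockout mean was 80.1% of the control mean. From the reads alone, the exact 95% Poisson intervals reached at most 2331 in a knockout and at least 2608 in a control; such intervals cover counting error only. By the authors' DESeq2 test NFE2L2 differed by -0.32 on the log2 scale (SE 0.16), with an unadjusted p of 0.0469 and an adjusted p of 0.389, so the gene carries the authors' mark of a downregulated gene and is not called after adjustment. In such bulk libraries, less RNA per cell and fewer cells with the RNA cannot be told apart. NFE2L2 overlaps the opposite-strand gene AGPS in GENCODE release 29, and the sources used here do not say whether counting used the strand. AGPS had 2710 and 3482 normalized counts in the knockouts, against 4998 and 3383 in the controls.

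KEAP1 (ENSG00000079999.13_3_KEAP1), the adaptor that brings NRF2 to its ubiquitin ligase, split the controls. Its normalized counts were 416 and 369.9 in the knockouts, against 325 in control A and 1741 in control B. The knockouts thus lay above one control and far below the other. The controls differed 5.35-fold from each other, and the deposited log2 fold change of -1.39 (SE 0.79; adjusted p of 0.453 by the authors' DESeq2 test) has the sign of control B alone. Against control A the mean log2 difference of the knockouts was 0.27, and against control B -2.15.

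TXNRD1 (ENSG00000198431.15_3_TXNRD1), the cytosolic selenoprotein that reduces thioredoxin with NADPH, was the 1 gene of the set that fell by the authors' test. It had 11628 and 12674 normalized counts in the knockouts, against 19679.9 and 20265 in the controls. The controls, which stood far apart at many other genes, were within 1.03-fold of each other here, and the 2 groups did not overlap. The knockouts averaged 12151 ± 740.1 and the controls 19972 ± 414 (SD, n = 2 each), which puts the knockouts at 60.8% of the control mean. By the authors' DESeq2 test the log2 fold change was -0.72 (SE 0.16), at an adjusted p of 0.00274. Of 16629 genes to which that test gave an adjusted p, 0.559% were called in either direction and 0.421% with the knockouts lower, against 1 of the 10 genes here; since the contrast chose them, nothing is read from that share. By limma on the recovered reads TXNRD1 had the same log2 fold change of -0.72, with an unadjusted p of 0.0162 and an adjusted p of 0.722. The same adjusted value stood at GCLC and TXN, whose unadjusted p-values by limma were 0.298 and 0.314. With all 4 libraries kept, the adjusted p of TXNRD1 by limma or voom ran from 0.689 to 0.767. Its log2 fold change was -0.70 without control B and -0.74 without control A. The gene EID3 lies within TXNRD1 on the same strand and had 414 and 386 normalized counts in the knockouts, against 527 and 293 in the controls.

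**Figure D1:**
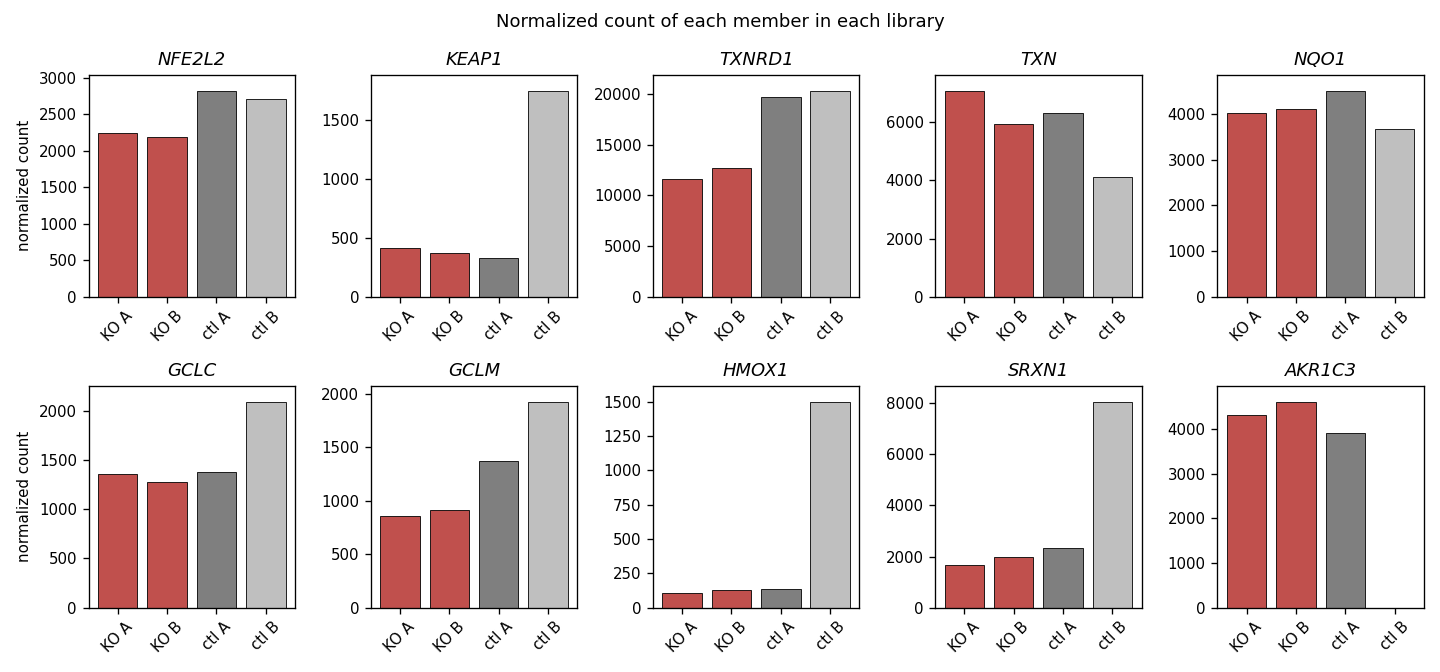
Normalized count of each gene (vertical axis, from 0, with its own scale per panel) in knockouts A and B (red) and controls A and B (grey); each bar is 1 library. The bars of NFE2L2 and TXNRD1 are nearly level within each group, at 2187 to 2242 against 2715 to 2816 for NFE2L2, whereas control B is far above the other libraries for KEAP1, HMOX1 and SRXN1 and at 0 for AKR1C3.

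TXN (ENSG00000136810.12_2_TXN) encodes thioredoxin, the small protein that TXNRD1 keeps reduced. Its normalized counts were 7058 and 5930.1 in the knockouts, against 6313 and 4104 in the controls. The groups overlapped, with control A between the knockouts. The deposited log2 fold change of TXN was 0.32 (SE 0.32; adjusted p of 0.672, DESeq2), so that the reductase and its substrate did not share a sign.

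SRXN1 (ENSG00000271303.1_3_SRXN1) encodes sulfiredoxin, which repairs overoxidized peroxiredoxins. It had 1682 and 1983 normalized counts in the knockouts, against 2324 in control A and 8044 in control B. Both knockouts lay below both controls, but control B was 3.46-fold above control A. The knockout mean was 78.9% of control A and 22.8% of control B. By the authors' DESeq2 test the difference was -1.50 on the log2 scale (SE 0.62), at an adjusted p of 0.277.

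GCLM and GCLC encode the modifier and the catalytic subunit of glutamate-cysteine ligase, the first enzyme of glutathione synthesis. GCLM (ENSG00000023909.9_2_GCLM) had 859 and 911 normalized counts in the knockouts, against 1371 and 1925 in the controls. The groups did not overlap, and the knockout mean was 64.5% of control A and 46.0% of control B. The deposited log2 fold change of GCLM was -0.90 (SE 0.29), with an unadjusted p of 0.00175 that DESeq2 adjusted to 0.135. GCLC (ENSG00000001084.10_3_GCLC) had 1357 and 1279 normalized counts in the knockouts, against 1383 and 2089 in the controls. Both knockouts again lay below both controls, but knockout A was within counting error of control A, with exact 95% Poisson intervals of 1290.3 to 1427 in knockout A and 1315 to 1455 in control A. The knockout mean of GCLC was 95.3% of control A and 63.1% of control B. GCLC had a deposited log2 fold change of -0.40 (SE 0.31; adjusted p of 0.592, DESeq2).

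NQO1 (ENSG00000181019.12_2_NQO1), a quinone reductase and the usual transcript readout of NRF2, had 4011 and 4114 normalized counts in the knockouts, against 4493 and 3676 in the controls. Both knockouts lay between the controls. The deposited log2 fold change of NQO1 was -0.01 (SE 0.21; adjusted p of 0.987, DESeq2), the smallest of the 10 in size.

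HMOX1 (ENSG00000100292.16_2_HMOX1) encodes the inducible heme oxygenase, which the factor BACH1 represses. Its normalized counts were 105 and 126 in the knockouts, against 136 in control A and 1497 in control B. Control B was 10.98-fold above control A, and the other 3 libraries were close together. The exact 95% Poisson interval was 104 to 151 in knockout B and 115 to 160.0 in control A, which overlap. By the authors' DESeq2 test HMOX1 had the most negative fold change of the set, -2.82 on the log2 scale (SE 1.03; adjusted p of 0.206), and against control A alone the difference was -0.24.

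AKR1C3 (ENSG00000196139.13_3_AKR1C3), an aldo-keto reductase of steroid and prostaglandin metabolism, had 4312 and 4607 normalized counts in the knockouts, against 3912 in control A and 0 in control B. No read was found in control B; against a floor of 3 reads in that library, the knockout mean was at least 1329-fold higher and control A at least 1166-fold higher. The deposited log2 fold change of 1.19 has an SE of 3.72 and, by DESeq2, an adjusted p of 0.891. Its near relatives AKR1C1 and AKR1C2 were also almost unread in control B, with 2.2 and 1.1 normalized counts, against 55.4 and 24.5 in control A. In the knockouts AKR1C1 had 128 and 139 and AKR1C2 38.1 and 38.8. Reads of these near-identical genes may be divided among them by the authors' counting, so single values are uncertain.

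In all, 6 of the 10 genes had their lower 2 values in the knockouts, NFE2L2, TXNRD1, SRXN1, GCLC, GCLM and HMOX1. AKR1C3 was higher in both, and 3 overlapped, KEAP1, TXN and NQO1. Of the 16610 genes with both an adjusted p and recovered reads, 21.3% had both knockouts below both controls and 23.9% had both above. Without control B, 7 of the 10 lay below control A in both knockouts, NQO1 being the addition, against 38.5% of all genes. Without control A, 7 lay below control B, with KEAP1 in place of NQO1, against 46.2% of all genes. The authors' mark of a downregulated gene, an unadjusted p under 0.05, stands at 5 of the 10, against 9.49% of genes with an adjusted p, and their upregulated mark at 0, against 3.13%. As the genes were chosen with this contrast known, these shares are a description. The median deposited log2 fold change was -0.56 over the 10 genes and -0.03 over all genes with an adjusted p.

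Against control A the knockouts differed by -0.70 at TXNRD1, -0.63 at GCLM, -0.35 at SRXN1 and NFE2L2, -0.24 at HMOX1, -0.15 at NQO1 and -0.07 at GCLC on the log2(normalized count + 1) scale. The differences from control A ran from -0.70 to 0.27 and those from control B, with AKR1C3 left aside, from -3.69 to 0.66. Between the knockouts no gene of the set differed by more than 0.26. Against control B the differences were -0.74 at TXNRD1, -1.12 at GCLM, -2.14 at SRXN1, -0.29 at NFE2L2, -3.69 at HMOX1 and -0.66 at GCLC, so that these 6 kept their sign, whereas NQO1 was at 0.14. Of the 4342 genes whose base mean reached 1000, 1.29% lay at least as far below control A as TXNRD1, and 0.691% at least as far below both controls. The share at least as far below both controls was 0.53% for HMOX1, 0.737% for GCLM, 1.17% for SRXN1, 6.43% for NFE2L2 and 15.8% for GCLC. Against control A alone these shares were 17.5%, 1.84%, 9.67%, 9.72% and 39.7%, in the same order. The genes were chosen with this contrast known, so small shares were to be had by that choice and all of them are a description. HMOX1, with a base mean of 466, lies outside the ranked genes and is set against better-read ones. Totals of the recovered reads leave out any gene with a base mean above 40000, where reads were not searched for. Scaling by these totals in place of size factors moved the median of all genes in limma's fit by 0.13. TXNRD1 then stood at -0.57, GCLM at -0.73, NFE2L2 at -0.17 and NQO1 at 0.15, against -0.72, -0.88, -0.32 and -0.00 with size factors, a move about as large as that of the median.

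**Figure D2:**
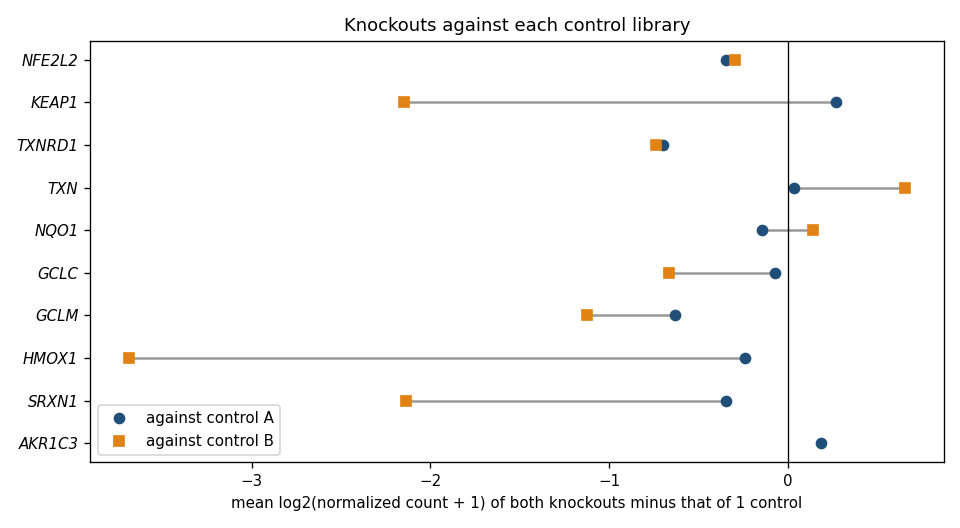
Mean log2(normalized count + 1) of both knockouts minus that of control A (blue circles) or control B (orange squares), with a grey line joining the pair for each gene; AKR1C3, at 0 in control B, has its control A point only. The points of TXNRD1 and NFE2L2 nearly coincide, at -0.70 and -0.74 for TXNRD1, and those of HMOX1 lie at -0.24 and -3.69.

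Standard errors in the authors' deposited table varied widely over the 10 genes. DESeq2 draws its dispersions partly from all genes, so a standard error is not the spread of 1 gene's libraries alone. NFE2L2 and TXNRD1 both had 0.16, although the SD of the knockouts was 38.9 around 2215 at NFE2L2 and 740.1 around 12151 at TXNRD1. Of 2977 genes within 2-fold of the base mean of NFE2L2, 1.07% had a smaller standard error, and of 231 near TXNRD1 7.36% did. At KEAP1, SRXN1 and HMOX1 the shares were 90.4%, 87.5% and 92.7%, and at AKR1C3 99.7%. GCLM, GCLC, TXN and NQO1 lay between, at 34.8%, 43.2%, 46.9% and 20.9%.

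**Figure D3:**
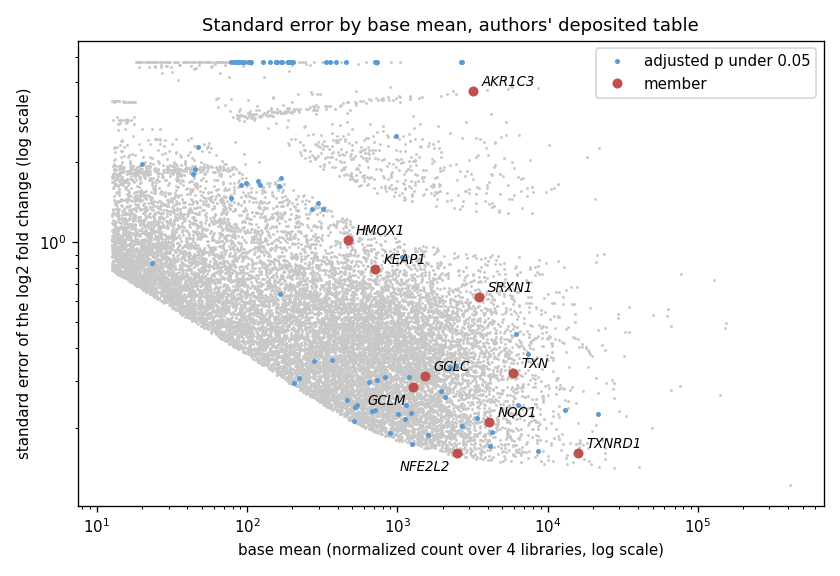
Standard error of the log2 fold change (vertical, log scale) against base mean (horizontal, log scale) for each gene given an adjusted p by the authors; called genes are blue and the 10 genes red. NFE2L2 and TXNRD1, both at 0.16, lie at the lower edge of the cloud, and AKR1C3, at 3.72, near its top.

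Among the same 4342 genes, the pattern over the 4 libraries most like that of NFE2L2 was that of PSMD12, a subunit of the proteasome cap, followed by WDR33, a factor of mRNA 3′ end formation, and MID1, a ubiquitin ligase. Likeness was the largest difference in any library between centred log2(normalized count + 1) values, which was 0.03 for PSMD12, 0.04 for WDR33 and 0.05 for MID1. PSMD12 had 2049 and 2042 normalized counts in the knockouts, against 2554 and 2446 in the controls. In all, 28 genes lay within 0.1 of NFE2L2. For TXNRD1 the nearest were CAPZA1, a subunit of the actin capping protein, TNRC6B, a scaffold of microRNA silencing, and SYPL1, a vesicle membrane protein, at 0.07, 0.08 and 0.08, and 5 genes lay within 0.1. CAPZA1 had 3205 and 3769 normalized counts in the knockouts, against 5321 and 5906 in the controls. With 4 libraries such likeness is a description only.

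Other redox genes were described from 7 lists of 96 genes in all, none of them among the 10 and all written with earlier results of these data known. Of these, 94 had an adjusted p. By the authors' DESeq2 test, 0 of the 94 rose and 0 fell at an adjusted p under 0.05, which called 0.559% of all genes, and 4 carried the upregulated and 7 the downregulated mark. Of the 94, 26 had both knockouts below both controls and 23 both above, near the background of 21.3% and 23.9% over all genes. Limma on the recovered reads called 0 of 24974 genes, with 500 at an unadjusted p under 0.05. Over the 7 lists together the median difference was -0.03 from control A and 0.07 from control B.

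The list of NRF2's regulators, partners and relatives held 15 genes. Of these, 9 had both knockouts below both controls and 0 both above, against 21.3% and 23.9% over all genes. The median difference of this list was -0.10 from control A and -0.75 from control B. SQSTM1, the autophagy receptor that sequesters KEAP1, had 5112 and 4998 normalized counts in the knockouts, against 7572 in control A and 67129.7 in control B. Its deposited log2 fold change was -2.89, at an adjusted p of 0.117 by DESeq2. The related factor NFE2L3 had 654 and 562 in the knockouts, against 739.8 and 9006 in the controls. NFE2L1, a paralog that controls proteasome genes, had 3311 and 3142 in the knockouts, against 2104 and 7142 in the controls. BACH1, the repressor that competes with NRF2 for its elements, was level across the libraries, at 2135 and 2394 in the knockouts, against 2158 and 2189.6 in the controls.

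Glutathione and NADPH genes had 5 of 17 below and 2 above both controls, beside 21.3% and 23.9% over all genes, with a median difference from control A of -0.05 and from control B of 0.45. SLC7A11, the cystine importer, had 5037 and 5875 normalized counts in the knockouts, against 5515 and 3714 in the controls. TKT, an enzyme of the pentose phosphate pathway, had 9583 and 10249 in the knockouts, against 9611 and 6786 in the controls. GSTM3, a glutathione transferase, had 6978 and 7172 in the knockouts, against 7308 and 548 in the controls. CHAC1, which degrades glutathione, was high in control B, at 105 and 78.7 in the knockouts against 23.6 and 459 in the controls.

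The other genes of the thioredoxin system had 4 of 17 below and 5 above both controls, near the 21.3% and 23.9% of all genes, with a median difference from control A of 0.04 and from control B of -0.17. TXNIP, which binds and inhibits thioredoxin, was higher in both knockouts, with 2243 and 2765 normalized counts, against 909.7 in control A and 34.6 in control B. Its deposited log2 fold change was 2.41 (SE 1.70; adjusted p of 0.549, DESeq2), and the knockouts exceeded control A by 1.45 and control B by 6.13 on the log2 scale. PRDX1, the most abundant peroxiredoxin of the list by normalized count, had 9060 and 9734 in the knockouts, against 11071 and 13836 in the controls. PRDX6 had 4258 and 4149, against 4023 and 2188, and TMX1, a thioredoxin of the endoplasmic reticulum, 424 and 463, against 573 and 1313. The mitochondrial reductase gene TXNRD2, which falls outside the naming rule and was added as the paralog of TXNRD1 after its values were seen, had 1014 and 952 in the knockouts, against 1041 and 773 in the controls.

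Detoxification and transport genes had 3 of 19 below and 8 above both controls, where all genes had 21.3% and 23.9%, with a median difference from control A of 0.01 and from control B of 1.31. ABCC1, an exporter of glutathione conjugates, had 3057 and 3089.6 normalized counts in the knockouts, against 3514 and 14149 in the controls. UGDH, which makes the donor for glucuronidation, had 3654 and 4241, against 6046 and 4271, and AKR1B1, aldose reductase, 4423 and 4563, against 4114 and 1066.

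Heme and iron genes had 1 of 9 below and 2 above both controls, beside 21.3% and 23.9% over all genes. FTH1, the ferritin heavy chain, had 34106 and 27560.4 normalized counts in the knockouts, against 21774 and 15176 in the controls, and BLVRB, a biliverdin reductase, 1016 and 906, against 652 and 397. Both carry the authors' upregulated mark, at adjusted p of 0.257 and 0.279 by DESeq2. The transferrin receptor gene TFRC had 21189 and 21248 in the knockouts, against 23704 and 12963 in the controls. The list's median difference was 0.16 from control A and 0.49 from control B.

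TXNRD1 needs selenocysteine, and the 13 genes of selenoprotein synthesis and other selenoproteins had 3 below and 6 above both controls, where all genes had 21.3% and 23.9%, with a median difference from control A of 0.05 and from control B of 0.11. GPX1, a selenium-dependent glutathione peroxidase, had 3415 and 3009 normalized counts in the knockouts, against 2522 and 826 in the controls. SELENOW had 1204 and 1038.5, against 726 and 437, and the selenocysteine elongation factor gene EEFSEC 448 and 473, against 346 and 101. LRP8, a receptor for selenoprotein uptake, had 1291 and 1278, against 1385 and 2054. Of the 4 superoxide and peroxide enzymes, SOD2 had 3689 and 3864 in the knockouts, against 3303 and 19599 in the controls, SOD1 1501 and 1427, against 1528 and 2680.2, and CAT, catalase, 501 and 546, against 504.4 and 1319. The median difference of these 4 was -0.01 from control A and -1.10 from control B.

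**Figure D4:**
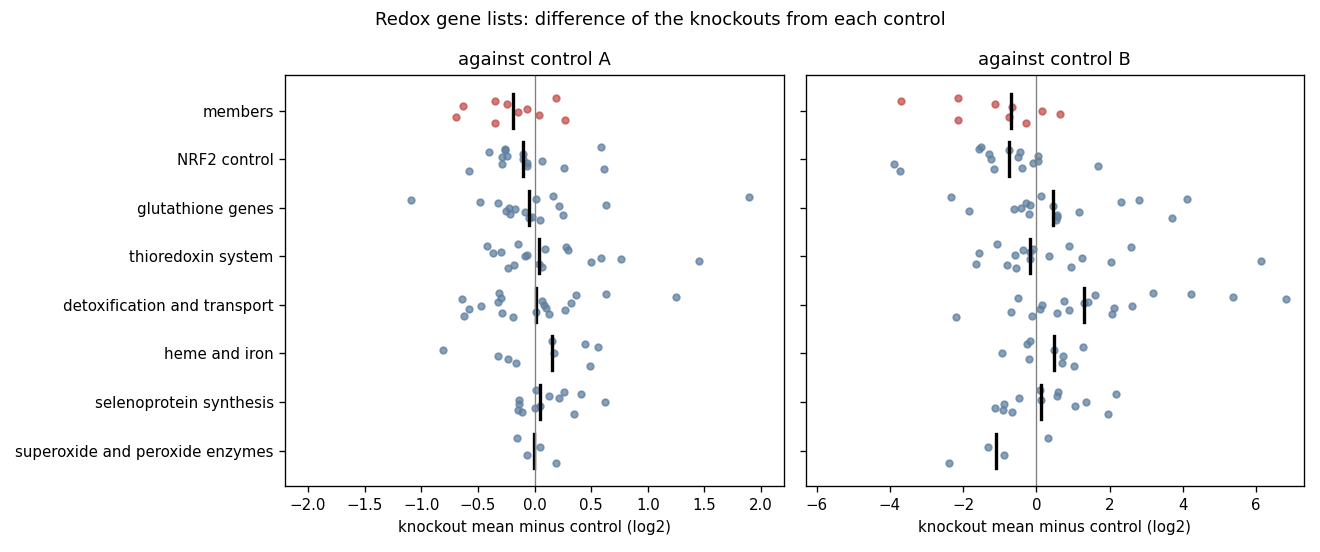
Mean log2(normalized count + 1) of both knockouts minus that of control A (left) or control B (right) for the 10 genes (red, top row) and for each redox gene list (blue), with 1 point a gene and a black bar at the median; AKR1C3 has no point on the right, being at 0 in control B. The axes differ in width. Medians lie between -0.19 and 0.16 on the left and between -1.10 and 1.31 on the right.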

How the data were processed

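The authors deposited 1 DESeq2 table, in which CFL1 knockout is set against control. It gives a base mean per gene, a signal that averages size-factor-scaled counts of the 4 libraries, as the authors deposited it. The authors' log2 fold change, its SE, the Wald score and each p-value were likewise taken as deposited. Per the submitters' processing notes, cutadapt, FastQC, STAR, RSEM and hg19 are named, without versions or order. The genes and lists were chosen with earlier results of these data known.

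Reads per library were recovered from the 15 printed digits of each base mean. The whole reads times the 4 steps of 1 read had to sum to it, and a negative binomial fit to them, at the dispersion implied by the standard error, had to return the deposited fold change within 1e-06 log2. A single solution was also accepted below a base mean of 1500, or within 1e-04 log2, as for AKR1C3. The signs of 1-read genes gave each library's group. Base means above 40000 were not searched. This gave reads for 30812 of 30831 genes. For TXNRD1, 63 sets of reads fitted the base mean and 1 returned the fold change, within 1.8e-11. Base means shifted on purpose gave any solution in 3 of 100 between 100 and 1000 and 5 of 100 between 1000 and 3000. Above, 60 of 100 up to 10000 and 99 of 100 up to 40000 did. A solution that also returned the fold change came in 0 of 100 in each range below 10000 and 2 of 100 above. The single solutions accepted below a base mean of 1500 did not need that return. The markers KRT19, CDKN2A and PTPRC rest on such solutions. At CDKN2A the fold change was missed by 1.2e-04 log2, and at KRT19 and PTPRC it was not returned at all. In the set, AKR1C3 aside, every gene returned it within 1.1e-07. Counts from RSEM are estimates, so the reads may be rounded estimates.

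The call is the authors' adjusted p under 0.05. Limma 3.58.1 (R 4.3.3) was run with a trended prior on log2(normalized count + 1) of genes that averaged 1 or more. Its test on simulated data drew all libraries from a common profile, apart from the genes changed on purpose. That test therefore does not cover a library as unlike the others as control B. Named genes were the 10, the called genes of each list, its 2 highest by base mean and 2 largest fold changes at base means of at least 100, TXNIP, SLC7A11, BACH1 and CFL1, and the 3 genes nearest in pattern to NFE2L2 and TXNRD1. Of these, 1 is not reported here. AGPS, EID3, AKR1C1, AKR1C2, TXNRD2 and the cell markers were added after their values were seen. Python 3.11.15 and matplotlib 3.10.9 were used.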

Additional observations from a re-analysis of the deposited data

How the results depend on the processing

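TXNRD1 remained the 1 called gene of the 10 with no independent filtering, with base means of at least 10 or 100 and at an adjusted p under 0.01, where 78, 91, 77 and 62 genes in all were called against 93. On the recovered reads, limma called 0 of the 10 and 0 genes in all with pseudocounts of 1 and 0.1 and on genes that averaged 10 or more, and so did voom, which weights by count; unadjusted p-values under 0.05 numbered 500, 476, 264 and 438. Leaving out 1 library at a time gave from 0 to 8519 called genes in all and from 0 to 6 of the 10. Both upper ends belong to the fit without control A, in which KEAP1, SRXN1, GCLC, GCLM, HMOX1 and AKR1C3 were called and TXNRD1 was not. The fit without control A tested 25161 genes in all, so calls were common in it far beyond the 10, and nothing is read from its upper ends. In each fit that left out 1 library, the lone library of a group is assumed to vary like the other group's. The count of genes lower in both knockouts was 6 with both controls and 7 with either alone, a comparison added after the data were seen. Such a count cannot fall when a control is left out, so nothing is read from it. The share over all genes went from 21.3% to 38.5% with control A alone and to 46.2% with control B alone. Of 100 refitted fold changes of the 10 genes, 85 lay within 1 standard error of the deposited value and 15 did not, 9 of them of AKR1C3. The causes of these changes were not tested. No paired analysis was possible because the deposited table does not tie its libraries to the replicate numbers of the labels. Depth limits HMOX1 most, with 117 to 150 reads outside control B.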
